A study of Homo sapiens with 12 samples.

Results

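The noncoding RNAs described here are MALAT1 and TUG1, measured in a brain-seeking breast cancer line grown with or without mouse astrocytes. They belong to a set of 5 nuclear long noncoding RNAs, MALAT1, NEAT1, TUG1, KCNQ1OT1 and HOTAIR, and were found as probe sets that the platform's annotation pairs with exactly 1 symbol equal to a member. MALAT1 had 2 such probe sets and TUG1 had 1, so 2 of the 5 RNAs could be followed among 17958 genes. NEAT1, KCNQ1OT1 and HOTAIR matched no probe set in that annotation by symbol or gene ID, and they are not analysed here. Where a gene had several probe sets, the one chosen by the highest mean log2 signal over the 12 arrays stood for it. The set itself was chosen with the fall of MALAT1 in the astrocyte cultures known, so the values of MALAT1 in those comparisons are given as a description, without a test. TUG1 and the gene lists were also chosen with earlier results of these data known. Their p-values below are therefore not independent of that choice.

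The cells were 231BR, a brain-seeking subline of the human breast cancer line MDA-MB-231 that carries EGFP. Each culture received vehicle or 10 nM estradiol, and held the tumour cells alone or tumour cells with mouse astrocytes, from which they were separated by sorting for EGFP at 24 h. The 12 Affymetrix arrays give 3 for each combination of treatment and culture, and the groups are called vehicle alone and estradiol alone, or vehicle with astrocytes and estradiol with astrocytes. The series title describes the astrocytes as estrogen receptor positive and asks about effects of estrogen on the tumour cells through them. All groups come from this 1 line. Nothing in the labels tells whether the 3 replicates of a group came from different cultures, and p-values here measure only their spread, which may be technical.

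Long noncoding RNAs are transcripts that act as RNA rather than as templates for protein, and many stay in the nucleus. MALAT1 is an abundant transcript of nuclear speckles, the bodies that store splicing factors, and its 3′ end is made by RNase P rather than by ordinary polyadenylation. NEAT1, its neighbour on the chromosome, is the scaffold of paraspeckles. TUG1 and HOTAIR have been linked to Polycomb complexes, which silence genes, and KCNQ1OT1 silences an imprinted gene cluster in cis. MALAT1 has been studied widely for its part in metastasis of breast and lung tumours.

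In the RefSeq annotation of GRCh38.p14, MALAT1 lies on chromosome 11 at 65497738 to 65506516, and NEAT1 lies on the same chromosome at 65422798 to 65445540. TALAM1, an antisense RNA, overlaps MALAT1 at 65499312 to 65507432. TUG1 lies on chromosome 22 at 30969265 to 30979395, and RefSeq now classes it as protein coding. RefSeq gives 2 starts for MALAT1 and 1 for TUG1. Their promoter windows, from 250 bases before to 50 bases after the start, are shown because both genes were lower with astrocytes. They are written 5′ to 3′ on the forward strand, on which both genes lie, and capitals mark every match to the motifs named after them.
MALAT1 upstream start, chr11:65497488-65497787: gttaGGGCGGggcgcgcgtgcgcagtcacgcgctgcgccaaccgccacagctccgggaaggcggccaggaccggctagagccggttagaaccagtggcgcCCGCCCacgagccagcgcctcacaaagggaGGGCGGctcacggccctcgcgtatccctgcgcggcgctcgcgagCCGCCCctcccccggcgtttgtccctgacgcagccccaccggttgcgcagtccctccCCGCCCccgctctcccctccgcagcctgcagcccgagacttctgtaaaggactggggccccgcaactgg
MALAT1 downstream start, chr11:65498795-65499094: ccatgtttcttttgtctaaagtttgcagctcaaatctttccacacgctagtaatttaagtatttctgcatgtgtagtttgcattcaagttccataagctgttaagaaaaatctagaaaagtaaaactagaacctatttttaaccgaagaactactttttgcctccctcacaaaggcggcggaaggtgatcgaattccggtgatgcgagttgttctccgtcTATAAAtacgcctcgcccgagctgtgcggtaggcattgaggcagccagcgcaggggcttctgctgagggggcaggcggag
TUG1, chr22:30969015-30969314: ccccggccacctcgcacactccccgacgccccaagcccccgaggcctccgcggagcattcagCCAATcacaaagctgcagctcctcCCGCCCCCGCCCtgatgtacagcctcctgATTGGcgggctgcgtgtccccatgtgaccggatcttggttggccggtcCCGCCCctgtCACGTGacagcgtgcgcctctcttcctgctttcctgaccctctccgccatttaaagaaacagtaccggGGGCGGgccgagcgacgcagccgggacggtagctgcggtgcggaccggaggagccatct

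The motifs searched on both strands were the estrogen response element (AGGTCA and TGACCT with 3 bases of any kind between them), its single arm AGGTCA, the TATA box TATAAA, the CCAAT box CCAAT, the GC box GGGCGG, the E-box CACGTG and the AP-1 site TGANTCA. An arm lies inside every full estrogen response element, and each motif was counted whether or not its letters overlapped another. The upstream MALAT1 window had 5 GC boxes and a GC content of 73.7%. The downstream MALAT1 window had a TATA box beginning 30 bases before the start and a GC content of 46.0%. The TUG1 window had 4 GC boxes, 2 CCAAT boxes, an E-box beginning 77 bases before the start and a GC content of 67.7%. No window held the estrogen response element, its arm or the AP-1 site, which says only that these letters were not in these windows. Among 35116 RefSeq promoter windows of the same length, 45.0% held a GC box, 34.6% a CCAAT box, 11.5% a TATA box, 7.26% an E-box, 7.71% the AP-1 site, 13.8% the arm and 0.00285% the full element, and the median GC content was 58.7%. A match is a description of the letters, not a site shown to be used.

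The arrays with astrocytes carried a narrower range of signal, and this touches every astrocyte comparison below. The SD of the log2 signal over genes ran from 1.77 to 2.02 on the 6 arrays without astrocytes and from 1.26 to 1.85 on the 6 with them. The array of estradiol with astrocytes, replicate 2, stood apart at 1.26, and across genes its r with the arrays of cells alone was 0.558 to 0.674. The next lowest, at 1.49, was replicate 2 of the vehicle group with astrocytes. Markers of mesenchymal breast cancer lines averaged 9.85 to 10.23 per array alone and 8.49 to 9.93 with astrocytes in log2 signal. These tumour cell markers were thus mostly lower with astrocytes, but the ranges overlapped. Of the 6, EGFR (−1.45, SE 0.31, adjusted p = 0.00714), CD44 (−0.93, SE 0.25, adjusted p = 0.0148) and VIM (−0.48, SE 0.17, adjusted p = 0.0371) fell in the mean of both treatments in limma and none rose. AXL at −0.52, CAV1 at −0.50 and LGALS1, which went the other way at 0.30, did not pass (adjusted p = 0.0811, 0.209 and 0.0805 in limma). Luminal or epithelial markers averaged 4.50 to 4.75 alone and 4.63 to 4.98 with astrocytes, and 1 of 7, ESR1, rose in the mean of both treatments. In that mean 5 of the 7 changes were positive, and EPCAM at −0.53 and FOXA1 at −0.27 were negative. Of 11 astrocyte markers, 4 rose and 2 fell with astrocytes in the mean of both treatments, with GFAP at 0.95 (SE 0.24, adjusted p = 0.0125 in limma) and SLC1A3 at −0.95 (SE 0.21, adjusted p = 0.00735). Their average per array was 4.85 to 5.02 alone and 4.89 to 5.06 with astrocytes. Of 6 measured microglia markers 2 rose, and their average was 3.91 to 4.20 alone and 4.16 to 5.03 with astrocytes. A further fit added the array SD to the model as a covariate. There 1 astrocyte marker rose and 1 fell, and no luminal, epithelial or microglia marker passed. Of the mesenchymal markers LGALS1 rose (0.49, adjusted p = 0.030 in limma) and none fell, and their median change moved from −0.51 to 0.04. EGFR, CD44 and VIM no longer passed (adjusted p = 0.103, 0.418 and 0.767 in limma). GFAP was then at 0.22 (adjusted p = 0.286 in limma) and SLC1A3 at −0.53 (adjusted p = 0.101). The part of the range of signal and of these markers in the results was not tested, except where values with the array SD are given.

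MALAT1 was lower on every array with astrocytes than on any array without them, as were 11.3% of all genes. For its highest-mean probe set, 7941272, the log2 signals of replicates 1, 2 and 3 were 10.26, 10.13 and 9.72 in vehicle alone. In estradiol alone they were 10.27, 9.75 and 10.00. In vehicle with astrocytes they were 8.72, 8.16 and 6.85, and in estradiol with astrocytes they were 8.54, 5.28 and 7.56. The 6 arrays without astrocytes lay within a narrow band, and those with astrocytes spread widely below it. Without astrocytes the group means were 10.04 ± 0.28 (SD, n = 3) under vehicle and 10.01 ± 0.26 (SD, n = 3) under estradiol. With astrocytes they were 7.91 ± 0.96 (SD, n = 3) under vehicle and 7.13 ± 1.67 (SD, n = 3) under estradiol. In sorted bulk RNA, fewer cells of a kind and less RNA per cell cannot be told apart. In this order of levels the 2 groups alone did not differ beyond their spread, nor did the 2 groups with astrocytes.

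The second MALAT1 probe set, 7949410, which the annotation pairs with another transcript record, was not used by the rule. Its log2 signals were 5.78, 5.85 and 5.31 in vehicle alone and 6.26, 5.67 and 5.85 in estradiol alone. They were 4.38, 4.49 and 3.80 in vehicle with astrocytes and 4.39, 4.05 and 3.29 in estradiol with astrocytes. Again no array with astrocytes reached the level of any array without them, an order shared by 11.3% of all genes. The lowest replicate was the same for both probe sets in 3 of the 4 groups. In estradiol with astrocytes it was replicate 2 for 7941272 and replicate 3 for 7949410. The files do not say which strand a probe set reads, so MALAT1 and its antisense RNA TALAM1 cannot be told apart here.

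TUG1, measured by probe set 8072407, was likewise lower on every array with astrocytes than on any array alone, as were 11.3% of all genes. Its log2 signals were 9.11, 9.11 and 8.67 in vehicle alone and 9.03, 8.69 and 9.05 in estradiol alone. They were 8.39, 6.77 and 6.12 in vehicle with astrocytes and 7.96, 6.37 and 6.96 in estradiol with astrocytes. The groups with and without astrocytes did not overlap, although replicate 1 of vehicle with astrocytes came within 0.28 of the lowest array alone. The means were 8.96 ± 0.25 (SD, n = 3) and 8.93 ± 0.20 (SD, n = 3) alone, and 7.09 ± 1.17 (SD, n = 3) and 7.10 ± 0.81 (SD, n = 3) with astrocytes, under vehicle and estradiol in turn.

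**Figure D1:**
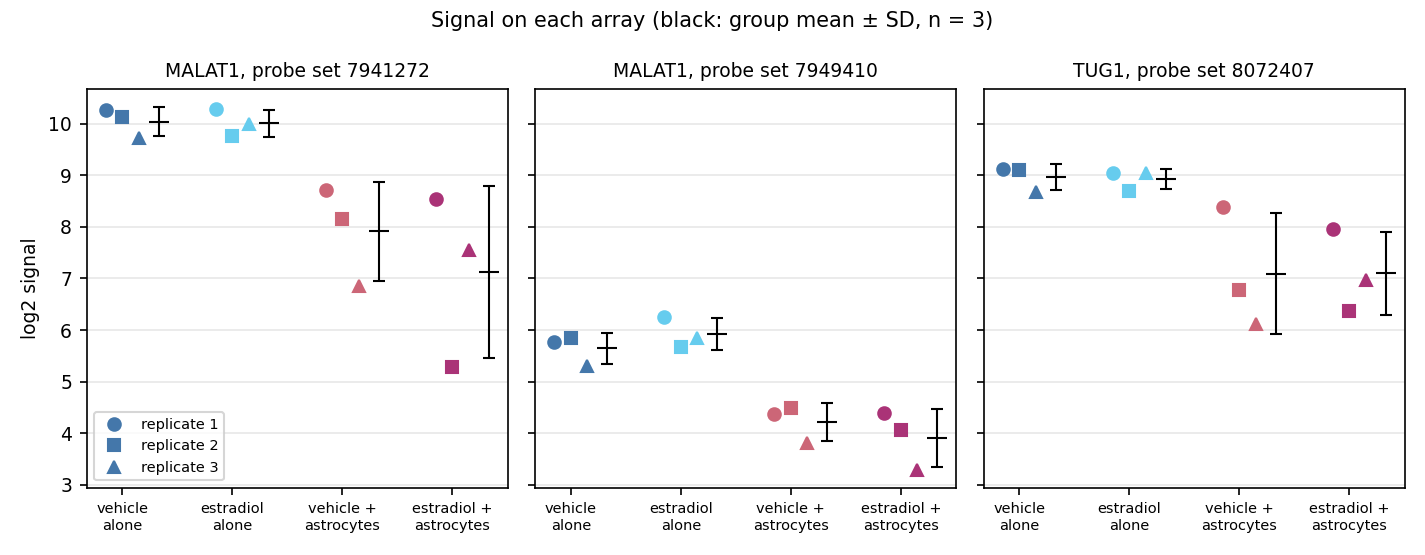
Log2 signal of the 2 MALAT1 probe sets and of TUG1 on each of the 12 arrays, by group, with marker shapes for replicates 1 to 3 and black bars for the group mean ± SD. All 6 arrays with astrocytes lie below all 6 arrays alone in each panel, as in 11.3% of all genes. The first MALAT1 probe set spreads from 5.28 to 8.72 with astrocytes.

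Under vehicle, the difference between culture with astrocytes and alone was −2.12 (SE 0.68) on the log2 scale for MALAT1, a 4.36-fold lower signal, and −1.42 (SE 0.31) for its second probe set. TUG1 differed by −1.87 (SE 0.52), with a 95% interval from −3.00 to −0.74, and did not pass (adjusted p = 0.0918 in limma over all genes). In this comparison 0.0557% of genes passed, 0.039% lower and 0.0167% higher. The groups did not overlap in 41.8% of genes, and in 18.4% all 3 arrays with astrocytes lay below all 3 arrays alone, against 23.4% above. TUG1 passed with replicate 1 of vehicle with astrocytes left out (−2.52, adjusted p = 0.0161 in limma). It also passed without replicate 1 or replicate 2 of estradiol with astrocytes, which are not in this comparison but share its estimate of spread (adjusted p = 0.0442 and 0.0178 in limma).

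Under estradiol, the difference was −2.88 (SE 0.68) for MALAT1, a 7.37-fold lower signal, and −2.01 (SE 0.31) for its second probe set. Without replicate 2 of estradiol with astrocytes, MALAT1 was at −1.96. TUG1 fell by 1.83 (SE 0.52), with a 95% interval from −2.96 to −0.70 (adjusted p = 0.0440 in limma). In this comparison 13.2% of all genes passed, 8.15% lower and 5.03% higher. The groups did not overlap in 50.9% of genes, and in 23.9% all 3 arrays with astrocytes lay below all 3 alone, against 27.0% above. The TUG1 call held in 3 of the 12 fits that left out 1 array, those without replicate 1 or 3 of vehicle with astrocytes or replicate 1 of estradiol with astrocytes. It was lost without any other array, with adjusted p from 0.0519 to 0.160 in limma.

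Averaged over vehicle and estradiol, MALAT1 differed by −2.50 (SE 0.48) with astrocytes and its second probe set by −1.72 (SE 0.22). TUG1 fell by 1.85 (SE 0.36, adjusted p = 0.00552 in limma), and its call held without each of the 12 arrays, with adjusted p of at most 0.0191. Since TUG1 was chosen with earlier results of these data known, this call is not an independent test. In this average 47.5% of all genes passed, 23.0% lower and 24.5% higher, so a call here is common. The 6 arrays with astrocytes did not overlap the 6 alone in 23.6% of genes, 11.3% lower and 12.2% higher. With each array centred on its median the split was 4653 lower and 2977 higher, against 4136 lower and 4392 higher as deposited, and the median change of all genes moved from 0.07 to −0.10. PTGS2, the gene of the prostaglandin enzyme COX-2, was taken as an outside gene for comparison and fell by 2.60 (SE 0.16, adjusted p = 5.31e-05 in limma). It fell by 2.64 under vehicle (SE 0.23, adjusted p = 0.00203) and fell by 2.56 under estradiol (SE 0.23, adjusted p = 0.00120).

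The range of signal moved with these differences. Genes were ranked by their mean signal on the arrays alone. Under vehicle the lowest 10% had a median change of 0.35 with astrocytes and the highest 10% one of −0.50, and under estradiol these were 0.50 and −0.90. MALAT1 and TUG1 both belonged to the highest 10%, of 1796 genes, where 81.3% of genes under vehicle and 90.1% under estradiol had negative changes. Among these 8 genes under vehicle and 7 under estradiol had changes as low as MALAT1 or lower, MALAT1 included. For TUG1 these numbers were 32 and 171. These places are descriptions, since the arrays that rank the signal also enter the differences.

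**Figure D2:**
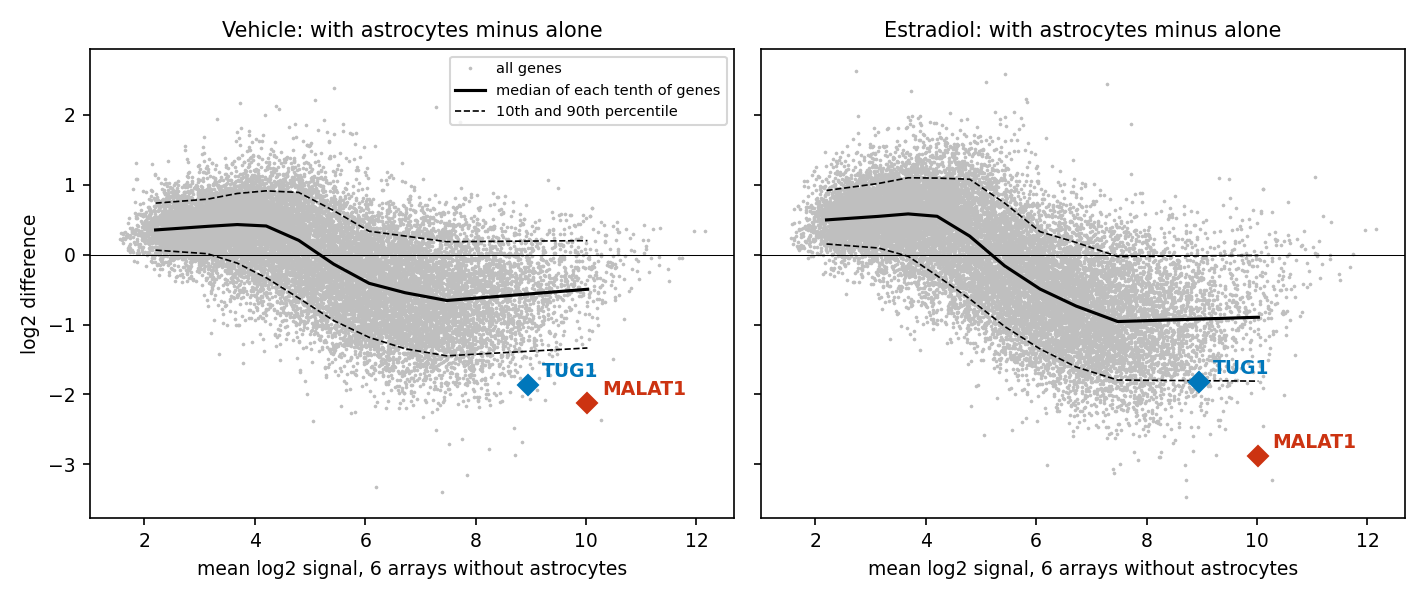
Log2 difference with astrocytes minus alone against the mean log2 signal on the 6 arrays alone, for 17958 genes under vehicle and under estradiol, with the median (solid line) and the 10th and 90th percentiles (dashed lines) of each 10% of genes. MALAT1 lies well below the 10th percentile of the highest 10% in both panels, and TUG1 lies below it under vehicle and close to it under estradiol.

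With array SD in the model, both RNAs kept negative differences of smaller size. MALAT1 was at −0.98 (SE 0.46) under vehicle and −1.41 (SE 0.50) under estradiol. TUG1 was at −1.14 (SE 0.42, adjusted p = 0.112 in limma) and −0.89 (SE 0.45, adjusted p = 0.279), and at −1.02 (SE 0.35, adjusted p = 0.0735) in the average, so it no longer passed. In the highest 10% of genes the median change was then 0.32 under vehicle and 0.20 under estradiol.

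The ranges of array SD with and without astrocytes overlapped only through 3 arrays. Replicate 1 of vehicle with astrocytes and replicate 1 of estradiol with astrocytes had an SD of 1.79 and 1.85, above that of replicate 3 of vehicle alone, 1.77. Their MALAT1 signals, 8.72 and 8.54, were below the 9.72 of that array, and their second probe set signals, 4.38 and 4.39, were below its 5.31. TUG1 was at 8.39 and 7.96 on them and at 8.67 on replicate 3 of vehicle alone. With 1 array on the side without astrocytes, these are single values, and the part of the range in the differences was not tested by them. Within the 6 arrays with astrocytes, the array SD correlated at r = 0.80 with the first MALAT1 probe set, 0.68 with TUG1 and 0.02 with the second MALAT1 probe set. Within the 6 arrays alone these values were 0.94, 0.89 and 0.83. The points of each correlation share the arrays, so it is a description of 6 points.

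**Figure D3:**
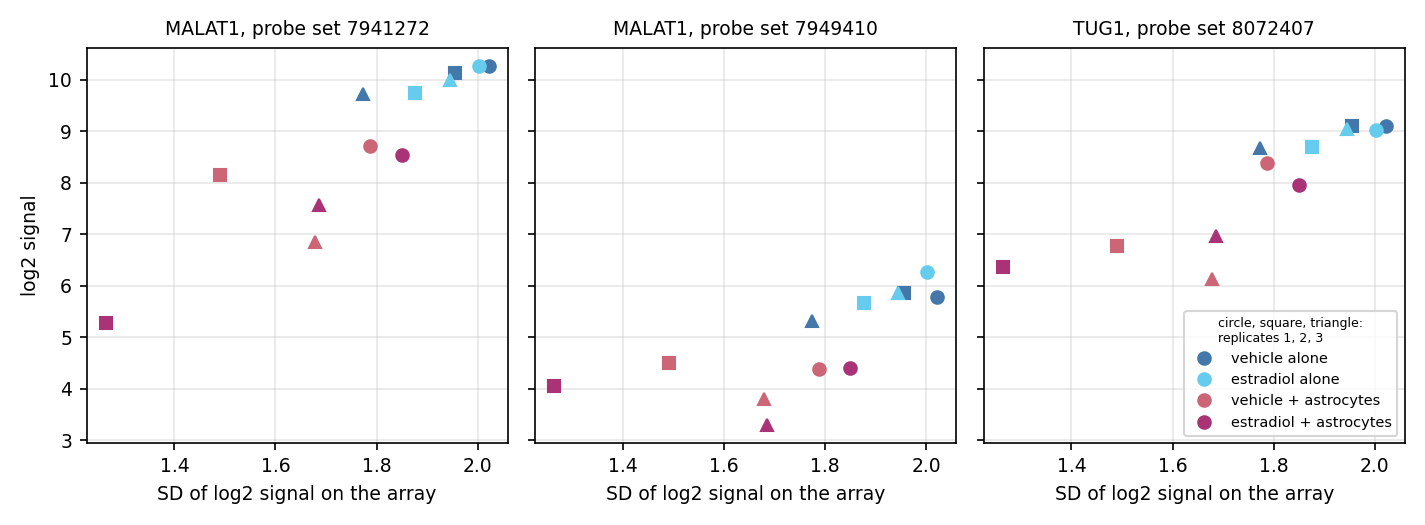
Log2 signal of the 2 MALAT1 probe sets and of TUG1 against the SD of log2 signal over genes on the same array, coloured by group, with circles, squares and triangles for replicates 1, 2 and 3. The arrays with astrocytes have SDs from 1.26 to 1.85 and those alone from 1.77 to 2.02, so the groups share little of the horizontal axis.

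**Figure D4:**
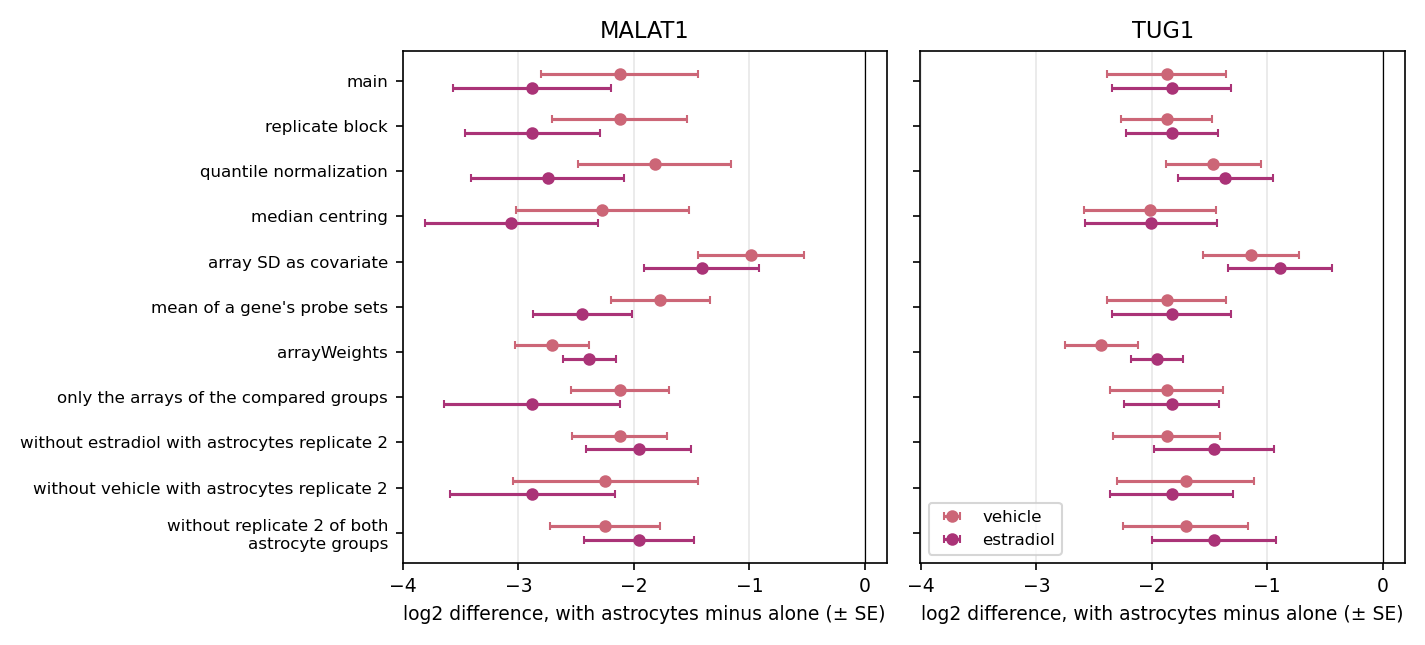
Log2 difference with astrocytes minus alone (± SE) for MALAT1 and TUG1 under vehicle and under estradiol, as reported in the top row and under 10 other settings. Every point is below 0, and those nearest to 0 for both genes are from the fit with the array SD as covariate.

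No estradiol difference passed the test for either RNA. In cells alone, estradiol against vehicle gave −0.03 (95% interval −1.52 to 1.46) for MALAT1 and −0.04 (95% interval −1.17 to 1.09) for TUG1, both with adjusted p = 1.0 in limma. With astrocytes it gave −0.79 (95% interval −2.28 to 0.71) for MALAT1 and 0.01 (95% interval −1.12 to 1.13) for TUG1, both with adjusted p = 0.9998. The value for MALAT1 turned to 0.14 without replicate 2 of estradiol with astrocytes. The second MALAT1 probe set gave 0.28 (95% interval −0.40 to 0.96) alone and −0.31 (95% interval −0.99 to 0.36) with astrocytes. These intervals rest on a spread shared by all groups, and the arrays with astrocytes varied more than those alone. The SE was 0.68 for MALAT1 and 0.52 for TUG1 in both comparisons. With only the arrays of the compared groups, it was 0.19 for MALAT1 and 0.17 for TUG1 in cells alone. With astrocytes it was then 0.85 and 0.64. The intervals given are wide, for cells alone partly through arrays outside that comparison. A missed threshold does not show that estradiol left the RNAs unaltered. In limma 0.0% of genes passed in each of these comparisons, with an unadjusted p under 0.05 for 1 gene alone and for 142 genes with astrocytes.

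The interaction, which asks whether the astrocyte difference itself changed with estradiol, was −0.76 (95% interval −2.87 to 1.35) for MALAT1 and 0.04 (95% interval −1.55 to 1.64) for TUG1, with adjusted p = 1.0 for both in limma. Here 0.0% of genes passed and 31 had an unadjusted p under 0.05. The interaction of MALAT1 was 0.16 without replicate 2 of estradiol with astrocytes.

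Most of the other noncoding RNAs listed here that passed went up with astrocytes as deposited. Of 55 listed, 18 were measured, and in the average over both treatments 8 rose and 3 fell, with a median change of 0.35 against 0.07 over all genes. Of all genes 24.5% rose and 23.0% fell in this average. TERC, the RNA of telomerase, rose by 1.88 (SE 0.18, adjusted p = 9.02e-04), and MEG3, an imprinted noncoding RNA, rose by 1.41 (SE 0.35, adjusted p = 0.0118). JPX fell by 0.93 (SE 0.20, adjusted p = 0.00696 in limma, as for the others). Among all 525 genes that RefSeq classes as long noncoding, 206 rose and 23 fell, with a median of 0.42, and their signal was low, with a median of 3.60 alone against 5.11 over all genes. With the array SD as covariate this split was gone, with 16 rising, 20 falling and a median of −0.0012, while in the list of 18 it was 4 rising and 0 falling with a median of 0.30 (limma). Of all 17958 genes, 1414 rose and 1020 fell with this covariate. In that fit TERC rose by 1.98 (adjusted p = 0.00111), MEG3 was at 0.30 (adjusted p = 0.266) and JPX at −0.76 (adjusted p = 0.0519). In the class 3 genes lay in the highest 10% of signal, MALAT1 with SNHG32 at −0.44 and ZFAS1 at −0.44, and in the average MALAT1 had the lowest change of the 525. RN7SK at 0.34 and RMRP at 0.59 (adjusted p of at most 0.0313 in limma) rose in the list of 18 but are not in this class. Both are named after their values were seen. The class was counted after values of these data were seen. SNHG32 and ZFAS1, both hosts of small nucleolar RNAs, are named because that count is small, after their values were seen.

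Genes for protein partners of these RNAs had mostly negative changes with astrocytes as deposited, and their medians were close to 0 with the array SD as covariate. In the average, 23.0% of all genes fell. Of 27 nuclear speckle and splicing factor proteins, 26 were measured, and in the average 17 fell and none rose, and all 26 had negative changes, from −1.83 to −0.07. SON, a speckle scaffold protein, fell by 1.83 (SE 0.34, adjusted p = 0.00469 in limma), SRRM2, another core speckle protein, fell by 1.06 (SE 0.23, adjusted p = 0.00720), and THRAP3 fell by 1.51 (SE 0.35, adjusted p = 0.00943). Of 16 paraspeckle proteins, 15 were measured, 8 fell and none rose, with a median of −0.91. The RNA-binding proteins TAF15 and EWSR1 were at −1.79 (SE 0.33) and −1.02 (SE 0.22), and the 3′ end processing factor CPSF6 at −1.30 (SE 0.26), with adjusted p of at most 0.00704 in limma. Of the core paraspeckle proteins, named after their values were seen, SFPQ fell by 1.29 (SE 0.35, adjusted p = 0.0156), while NONO at −0.67 and PSPC1 at −0.44 did not pass (adjusted p = 0.0614 and 0.108).

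Among 16 measured Polycomb and other chromatin partners, 11 fell and none rose, with a median of −1.06. REST and its corepressor RCOR1 were at −1.72 (SE 0.31) and −1.64 (SE 0.28), and AEBP2, a Polycomb cofactor, at −1.08 (SE 0.18), with adjusted p of at most 0.00430 in limma. EZH2, the Polycomb methyltransferase, was at −1.05 and did not pass (adjusted p = 0.0778); it was named after its value was seen. Of 21 measured genes for nuclear RNA processing and decay, 10 fell and none rose, with a median of −0.79. The exosome subunit EXOSC3 was at −1.90 (SE 0.28), ZFC3H1, which directs nuclear RNA to the exosome, at −1.98 (SE 0.30), and the microRNA processing enzyme DROSHA at −1.48 (SE 0.31), with adjusted p of at most 0.00645. METTL16, which binds the end of MALAT1 and was named after its value was seen, fell by 0.94 (SE 0.31, adjusted p = 0.0306).

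These 4 lists lie high in signal, with medians from 7.11 to 8.04 on the arrays alone, where most genes had negative changes. With the array SD as covariate their medians were between −0.07 and 0.03, and 19 of 26 speckle, 7 of 15 paraspeckle, 8 of 16 Polycomb and 10 of 21 RNA processing genes were negative. In that fit 1020 of all 17958 genes fell and 1414 rose. Of the lists, 1 speckle gene fell and 2 rose, and 2 paraspeckle genes fell. For Polycomb and other chromatin partners 4 fell and 1 rose, and for nuclear RNA processing 2 fell and 2 rose. SON (−0.91, adjusted p = 0.0384), TAF15 (−0.82, adjusted p = 0.0228), CPSF6 (−0.53, adjusted p = 0.0367), RCOR1 (−0.90, adjusted p = 0.0248), EXOSC3 (−1.17, adjusted p = 0.0108) and ZFC3H1 (−1.19, adjusted p = 0.0118) were among those that fell there in limma. In the comparison under estradiol by itself, as deposited, 8.15% of all genes fell. Of the lists, 4 speckle, 4 paraspeckle, 5 Polycomb and 4 RNA processing genes fell with astrocytes there. Under vehicle 0 did in limma, where 10 of all genes passed and 5073 had an unadjusted p under 0.05.

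**Figure D5:**
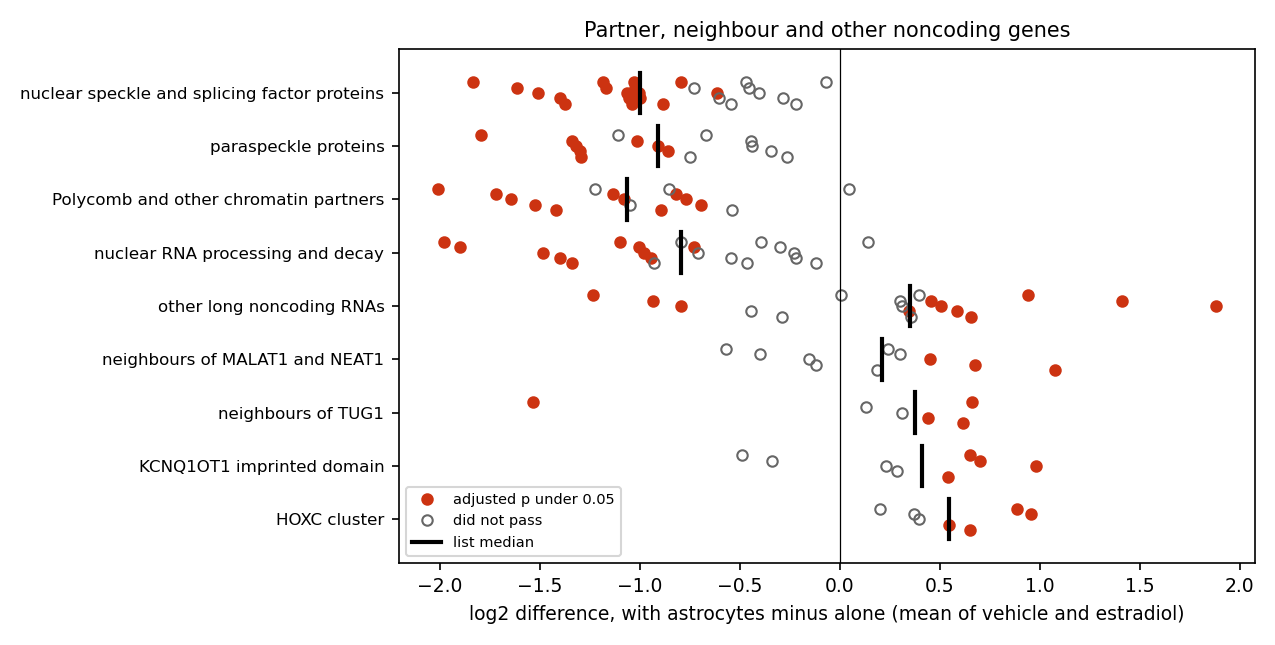
Log2 difference with astrocytes minus alone, averaged over vehicle and estradiol, for each measured gene of 9 lists of protein partners, chromosomal neighbours and other noncoding RNAs, with filled points for adjusted p under 0.05 and a bar at each list's median. The 4 partner lists have medians from −1.06 to −0.79 (−0.07 to 0.03 with the array SD as covariate), and the other 5 have medians above 0.

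Chromosomal neighbours of the 5 RNAs are described beside the 24.5% of all genes that rose and the 23.0% that fell in the average. Of 10 measured genes around MALAT1 and NEAT1, 3 rose and none fell with astrocytes in the average, with a median of 0.21. EHBP1L1 rose by 1.07 (SE 0.19), TIGD3 by 0.68 (SE 0.17) and LTBP3, which binds latent TGF-beta, by 0.45 (SE 0.13), with adjusted p of at most 0.0181 in limma. That count is near the share over all genes. Around TUG1, 3 of 6 genes rose and 1 fell. MORC2, a chromatin silencing ATPase, fell by 1.54 (SE 0.28, adjusted p = 0.00464), while the selenoprotein gene SELENOM rose by 0.66 (SE 0.17) and OSBP2 by 0.44 (SE 0.14). In the imprinted domain of KCNQ1OT1, 4 of 8 measured genes rose and none fell, with the cell cycle inhibitor gene CDKN1C at 0.70 (SE 0.13), TSPAN32 at 0.65 (SE 0.18) and the potassium channel gene KCNQ1 at 0.98 (SE 0.33), and adjusted p of at most 0.0337. In the HOXC cluster, which holds HOTAIR, 4 of 7 rose and none fell, with HOXC12 at 0.88 (SE 0.21), HOXC10 at 0.65 (SE 0.20) and HOXC13 at 0.96 (SE 0.29), and adjusted p of at most 0.0228. The medians of the TUG1, KCNQ1OT1 and HOXC lists were 0.37, 0.41 and 0.55, and with the array SD as covariate they were 0.083, 0.11 and 0.081. The list around MALAT1 and NEAT1 went the other way, from 0.21 to 0.45, and 2 of its 10 genes were negative with the covariate. The HOXC genes were low in signal, with a median of 3.89 alone. With that covariate 3, 2, 1 and 1 genes of these 4 lists rose, the HOXC gene being HOXC5 (0.46, adjusted p = 0.0483 in limma), which had not passed as deposited and was named after its value was seen, and MORC2 (−0.70, adjusted p = 0.0240) still fell. Of all 17958 genes, 1414 rose and 1020 fell in that fit.

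The genes most like each RNA over the 12 arrays were ranked by Pearson's r. For MALAT1 they were CHD2, a chromatin remodeller (r = 0.993), TRPS1, a transcription factor (0.992), WSB1, a ubiquitin ligase subunit (0.991), VEGFA, a growth factor of blood vessels (0.990), and EREG, an EGFR ligand (0.990). Over just the 6 arrays with astrocytes, their r with MALAT1 was from 0.977 to 0.993, and over the 6 arrays alone it was 0.592 for CHD2, 0.696 for EREG, 0.753 for VEGFA, 0.876 for TRPS1 and 0.965 for WSB1. For TUG1 they were TJP1, a tight junction protein (r = 0.995), ITSN2, an endocytic adaptor (0.994), and the glutamate transporter SLC1A3 (0.991). Over the arrays alone these were 0.932, 0.948 and 0.709. Such likeness is common in these arrays, since 721 genes had r over 0.95 with MALAT1 and 673 with TUG1, and all share the arrays and their range of signal. MALAT1 and TUG1 correlated with each other at r = 0.91 over the 6 arrays alone and 0.78 over the 6 with astrocytes.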

How the data were processed

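RNA was measured on single-colour Affymetrix arrays, 1 per sample. The deposited values are log2 signals, and RMA and Partek are named without versions, per the submitters' processing notes. RMA corrects background, quantile-normalizes and summarises probes. The array medians over all probe sets still ran from 4.35 to 4.77, so arrays are not on an identical scale. The platform annotation gave 1 symbol for 19181 of 33297 probe sets, several for 2055, and does not list 12061. The highest-mean probe set per symbol left 17958 genes, with no filter. Symbols were updated through RefSeq, GRCh38.p14, which also supplied the promoter sequences.

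Differences were tested in limma 3.58.1 (R 4.3.3; 1 mean per group over all 12 arrays, eBayes, two-sided), with Benjamini-Hochberg adjustment over all genes and a threshold of 0.05. The model was tested on simulated data that gave every group the spread of the arrays alone, with genes independent of each other. That test does not cover the wider spread or the narrower range of signal of the arrays with astrocytes. The members and lists were chosen with earlier results of these data known. Up to 3 genes of each list, those with the smallest p in the average astrocyte comparison, are named, with the genes most like each RNA (5 for MALAT1, 3 for TUG1; microRNA, small nucleolar RNA and open reading frame names left out). Others are said to be named after their values were seen. Arrays of the 2 astrocyte groups that share a number deviated from their group's mean with r = 0.789, 0.756 and 0.214 for replicates 1, 2 and 3. Replicate 1 under vehicle and replicate 3 under estradiol had r = 0.396, above the value of the replicate 3 pair. These groups were also paired by number, from the values and not from the labels. Alternatives were the replicate block, other scalings, filters, probe set rules, variance options, the array SD as covariate and arrays left out. The number of arrays limits the precision.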

Additional observations from a re-analysis of the deposited data

How the results depend on the processing

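The negative astrocyte differences of MALAT1 and TUG1 kept their direction under every alternative run. Leaving out 1 array in turn gave, for MALAT1, −2.53 to −1.59 under vehicle and −3.59 to −1.96 under estradiol, and for TUG1, −2.52 to −1.39 and −2.26 to −1.46. The replicate block put TUG1 past the threshold under vehicle (adjusted p = 0.0242 in limma) and kept it under estradiol (0.0126). The labels do not pair arrays alone with arrays with astrocytes, so this is a shared number only. Between these cultures, deviations from the group mean for replicates 1, 2 and 3 correlated at r = 0.58, −0.44 and 0.06 under vehicle. Under estradiol the values were 0.54, 0.48 and −0.02. Pairing the astrocyte groups changed no call, with MALAT1 at −0.79 and TUG1 at 0.01 for estradiol (adjusted p = 0.9995 and 0.9996). TUG1 also passed under vehicle with arrayWeights (adjusted p = 9.23e-05) and with the 6 compared arrays only (0.0498). Under estradiol it did not pass after quantile normalization (−1.36, adjusted p = 0.0667), with the compared arrays only (0.110) or without replicate 2 of both astrocyte groups (−1.46, 0.0923).

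The counts of genes past the threshold moved more. Under vehicle the 10 genes became 2583 with the replicate block, 4 with median centring, 978 with the array SD, 5 among genes above the median level, 41 over single probe sets, 10663 with arrayWeights, 1594 with the compared arrays only and 1004 without replicate 2 of both astrocyte groups, and ran from 2 to 6107 without single arrays. Under estradiol the 2366 genes became 6691 with the block, 542 after quantile normalization, 340 with the array SD, 11989 with arrayWeights and 0 in limma with the compared arrays only (5353 genes had an unadjusted p under 0.05 there), and ran from 3 to 9222 without single arrays. In the average the 8528 genes became 2434 with the array SD, 4118 above the median level and 13651 with arrayWeights, and ran from 4770 to 11339 without single arrays. For estradiol against vehicle, arrayWeights called 1 gene alone and 1 with astrocytes, and the array SD called 1 with astrocytes. The cause was not tested.

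Small estradiol differences changed sign. For MALAT1 alone the value was 0.13 with the mean of its probe sets, and ran from −0.19 to 0.10 without single arrays; with astrocytes it was 0.19 with arrayWeights, 0.26 without replicate 2 of both astrocyte groups, and from −1.49 to 0.14 without single arrays. Its interaction was 0.32 and 0.29 under the same alternatives and from −1.46 to 0.16 without single arrays. For TUG1 the values without single arrays ran from −0.19 to 0.078 alone, from −0.48 to 0.65 with astrocytes and from −0.44 to 0.69 for the interaction. None passed the threshold in any of these fits.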
